A study of Mus musculus with 8 samples.

Results

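The genes described here encode cohesin, the ring-shaped complex that holds sister chromatids together, and its protector. They number 10 of the 23343 genes in the RNA tables: the meiotic subunits Rec8, Rad21l, Stag3 and Smc1b, the general subunits Rad21, Stag1, Stag2, Smc1a and Smc3, and Sgol2, which guards centromeric cohesin. They were chosen by gene name. The series holds 8 samples from adult C57BL/6 mouse testis, 2 in each of 4 groups. RNA was sequenced from pachytene spermatocytes (PS), which are in meiotic prophase, and from round spermatids (RS), the haploid cells that follow, both from mice lacking Rnf8, a ubiquitin ligase of the DNA damage response, and Scml2, a germline Polycomb protein (Rnf8- and Scml2-dKO). H3K27ac, the acetylation of histone H3 that marks active promoters and enhancers, was mapped in the same stages from wild type. The genotype therefore differed between the assays, and no wild-type RNA or dKO H3K27ac was analysed here. The cells were purified by sedimentation in an albumin gradient, for the dKO at a small scale that needed only a single mouse per purification. The study describes the 2 samples of a group as biological replicates. Which PS and RS samples came from the same mouse was not given in the sources used here.

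A cohesin ring is built from a pair of SMC proteins, a kleisin that closes the ring and a STAG protein that sits on the kleisin. Mitotic cells use SMC1A, SMC3, RAD21 and STAG1 or STAG2, whereas meiotic cells replace SMC1A with SMC1B, RAD21 with REC8 or RAD21L, and STAG1 or STAG2 with STAG3, and SMC3 is shared. These rings form the axes of meiotic chromosomes, and separase cleaves REC8 on the chromosome arms in the first division and at the centromeres in the second, where shugoshin 2, the product of Sgol2, has protected it.

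The RNA samples held between 9655405 and 12289694 reads on genes, and the 10 genes took from 0.153% to 0.165% of them. All 6 round spermatid markers (Prm1, Prm2, Tnp1, Tnp2, Acrv1 and Spaca1) were higher in RS, with a summed RPKM (reads per kilobase of transcript, scaled to the depth of the sample) of 434 and 749 in PS and of 12874 and 13704 in RS. Of the spermatocyte markers reported, Sycp3, Hormad1 and Spo11 were lower in RS, Dmc1 was higher and Sycp1 did not pass the test. Other cell types differed between the groups as well. All 4 Leydig markers were lower in RS, with summed RPKM of 698 and 524 in PS against 66.4 and 40.9 in RS, and both macrophage markers were higher, with 0.892 and 0.954 against 9.94 and 8.59. Of 5 spermatogonial markers 3 were higher in RS, and of 3 Sertoli markers tested 2 were. The smooth muscle markers summed to between 1.54 and 2.35 in all 4 samples, and Hbb-b1 and Hba-a1 had no read. The part of these cells in the results was not tested. Reads on the targeted genes remained, from 50 to 110 for Rnf8 and from 40 to 98 for Scml2, and with no wild-type RNA beside them they do not check the genotype.

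Before the values, the promoter sequences that frame them are given, read from RefSeq on GRCm38.p6, the same build as the mm10 of the deposited files, 5′ to 3′ on the strand of the gene. Of the 10 genes, Rad21 and Stag2 had no entry in the promoter table, and Sgol2 stands there as Sgo2a. Rec8 and Stag3 are shown as the pair of meiotic genes whose H3K27ac differed most between the stages. For Smc1b and Smc1a the whole stretch between the start site and that of the head-to-head neighbour is shown, because 1 acetylated region carried both gene names there. Capitals mark matches on either strand to a CCAAT box (CCAAT), a MYB motif (CAACNG or TAACNG), an E-box (CACGTG), an E2F motif (GGCGGGA), a cAMP response element (TGACGTCA) or a STRA8 motif (CNCCTCAG).
Rec8, chr14:55617916-55618165, plus strand: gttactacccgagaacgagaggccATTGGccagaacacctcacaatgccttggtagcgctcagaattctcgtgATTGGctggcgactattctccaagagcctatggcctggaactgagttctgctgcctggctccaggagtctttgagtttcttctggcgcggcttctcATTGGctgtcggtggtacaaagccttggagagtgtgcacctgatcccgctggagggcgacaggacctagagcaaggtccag
Stag3, chr5:138280259-138280508, plus strand: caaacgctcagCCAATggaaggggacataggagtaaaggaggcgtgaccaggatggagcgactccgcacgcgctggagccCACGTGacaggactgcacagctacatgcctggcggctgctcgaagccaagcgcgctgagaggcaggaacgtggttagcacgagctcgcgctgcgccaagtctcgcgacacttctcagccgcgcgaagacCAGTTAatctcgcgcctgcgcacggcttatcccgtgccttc
Smc1b, chr15:85131958-85132098, minus strand: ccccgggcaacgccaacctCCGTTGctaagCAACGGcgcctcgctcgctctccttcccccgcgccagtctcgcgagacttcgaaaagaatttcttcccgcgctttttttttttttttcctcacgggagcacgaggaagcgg
Smc1a, chrX:152016296-152016427, plus strand: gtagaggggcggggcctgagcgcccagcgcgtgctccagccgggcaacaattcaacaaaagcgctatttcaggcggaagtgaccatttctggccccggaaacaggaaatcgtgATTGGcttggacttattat

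The Rec8 stretch held 3 CCAAT boxes, all on the opposite strand, which began 226, 177 and 81 bases before the start site. In the Stag3 stretch an E-box began 170 bases before the start, beside a MYB motif and a CCAAT box. The Smc1b stretch of 141 bases held a pair of MYB motifs on opposite strands, at 122 and 111 bases before the start, and the Smc1a stretch of 132 bases held 1 CCAAT box. Over the 250 bases before the start, a CCAAT box was found for 6 of the 8 genes with an entry, and 33.8% of all 32851 promoters hold such a match. For Stag1 the start of the promoter entry (position 100643448) lay upstream of the deposited start (100643623). Its CCAAT box began 78 bases before the former and was not wholly within 250 bases of the latter. A MYB match was found for 4 of the 8 and in 43.1% of all promoters. The CCAAT match of Smc1b and the MYB match of Smc1a lay beyond the start of the head-to-head neighbour, outside the stretches shown. Sgol2 was searched before both of its starts, and a match before either was counted. The E-box was found for Stag3 alone among them (6.02% of all promoters) and the E2F motif for Sgol2 alone (9.75%), and neither the cAMP response element (1.55%) nor the STRA8 motif (6.42%) was found for any. A match is a run of letters, and no binding was measured.

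The meiotic kleisin Rec8 and the general subunits Stag2, Smc3 and Rad21 had more RNA in RS than in PS, by 6.39-fold, 5.13-fold, 3.39-fold and 2.88-fold, as had the second meiotic kleisin Rad21l, by 2.56-fold. Sgol2, the protector, had 2.99-fold less RNA in RS, and the general subunit Stag1 1.65-fold less. Stag3 and Smc1b, the most abundant meiotic subunits, and Smc1a stayed under the threshold of 1.5-fold. The calls rest on edgeR's quasi-likelihood test over all 14647 genes with at least 10 reads in at least 2 samples, at a Benjamini-Hochberg adjusted p under 0.05 and at least 1.5-fold, and all 10 genes passed the filter. Thus 5 of 10 genes were higher and 2 were lower in RS, while of all genes tested 30.4% were higher and 27.6% were lower. In these bulk samples, fewer cells of a type and less RNA per cell cannot be told apart.

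**Figure D1:**
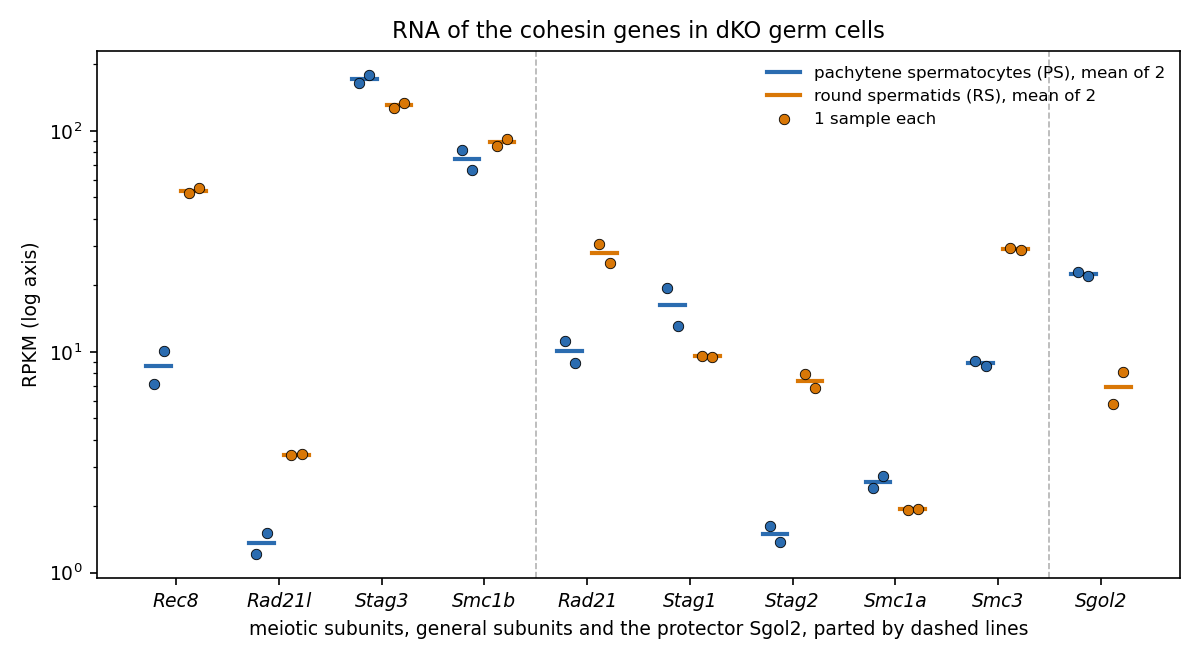
RNA of each cohesin gene in RPKM (log axis) in the 2 PS and 2 RS samples of the dKO, with points for samples and bars for the mean of 2. Stag3 and Smc1b lay highest in both stages, and Rec8 shows the widest gap between the stages among the meiotic subunits.

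Among the kleisins, the proteins that separase cuts, Rec8 (chr14:55618166-55625395) had 7.13 and 10.1 RPKM in PS and 52.2 and 54.9 in RS. Both RS samples lay far above both PS samples, and the log2 difference was 2.68 ± 0.19 (SE, n = 2 and 2; edgeR adjusted p = 9.3e-06). Rad21l (chr2:151645404-151668533), the kleisin of early prophase axes, was the lowest meiotic subunit, with 1.22 and 1.52 RPKM in PS and 3.4 and 3.43 in RS. It rested on 23 and 28 reads in PS and on 79 and 67 in RS, and its log2 difference was 1.36 ± 0.29 (edgeR adjusted p = 0.0037). Rad21 (chr15:51962604-51991760), the mitotic kleisin, had 11.2 and 8.87 RPKM in PS and 30.9 and 25.2 in RS, a log2 difference of 1.52 ± 0.17 (edgeR adjusted p = 9.37e-05). All 3 kleisins were therefore higher in both RS samples than in either PS sample. Such a separation of the stages, in 1 direction or the other, was found for all 10 genes, also for Stag3, Smc1b and Smc1a, which were not called. It is thus not particular to the kleisins, and its share over all genes is not given here.

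Of the STAG proteins, Stag3 (chr5:138280509-138312393), the meiotic form, was the most abundant of the 10 genes per length, with 165 and 180 RPKM in PS and 127 and 134 in RS. The groups did not overlap and the adjusted p was under the threshold, but the log2 difference of -0.36 ± 0.12 was short of 1.5-fold (edgeR adjusted p = 0.0229). Stag1 (chr9:100643623-100958544), a general form, had 19.4 and 13 RPKM in PS and 9.61 and 9.48 in RS, with a log2 difference of -0.72 ± 0.18 (edgeR adjusted p = 0.00788). Its call was lost without the first PS sample (log2 -0.45, adjusted p = 0.0194, under 1.5-fold), without the first RS sample (-0.64, adjusted p = 0.0506) and without the second (-0.61, adjusted p = 0.0728), all by edgeR. Stag2 (chrX:42149412-42277175), the other general form, went the other way, from 1.63 and 1.37 RPKM in PS to 7.97 and 6.85 in RS, a log2 difference of 2.36 ± 0.19 (edgeR adjusted p = 1.59e-05). Stag1 and Stag2, alternatives to each other in mitotic rings, were thus called in opposite directions.

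The SMC proteins form the arms of the ring. Smc1b (chr15:85064689-85131957), the meiotic SMC1, had 81.7 and 66.8 RPKM in PS and 85.4 and 92.4 in RS. The RS samples lay just above the PS samples, and the log2 difference of 0.30 ± 0.13 did not pass (edgeR adjusted p = 0.066). Smc1a (chrX:152016428-152061973), its X-linked mitotic counterpart, was at 2.41 and 2.74 RPKM in PS and 1.93 and 1.95 in RS, with a log2 difference of -0.37 ± 0.22 that did not pass either (edgeR adjusted p = 0.164). Smc3 (chr19:53600396-53645831), the subunit that both kinds of ring share, had 9.1 and 8.63 RPKM in PS and 29.6 and 28.8 in RS, a log2 difference of 1.76 ± 0.13 (edgeR adjusted p = 9.95e-06). Stag2 and Smc1a are both on the X chromosome, which is silenced in pachytene. Of 470 X-linked genes tested 61.9% were higher in RS, and Stag2 was among them while Smc1a was not.

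Sgol2 (chr1:57985340-58026277) had 22.9 and 21.9 RPKM in PS and 5.78 and 8.08 in RS, a log2 difference of -1.58 ± 0.17 (edgeR adjusted p = 8.78e-05). Only unique alignments were counted, so reads that match its paralog Sgo2b equally well are not in these counts. The deposited tables split its reads between isoforms that start 10634 bases apart. The isoform with the upstream start (NM_001177867) held 39.4% and 43.4% of the reads of the gene in PS and 17.5% and 16.5% in RS. Its counts were 501 and 510 in PS and 72 and 80 in RS, whereas those of the downstream isoform (NM_199007) were 769 and 666 against 340 and 406. Both isoforms had fewer reads in both RS samples, and the share of the upstream isoform was lower in both. Stag2 also has a pair of isoforms, and there the split was not stable between samples of a group. NM_001077712 took all reads of the gene in the first PS sample and 25.0% in the second, and 88.0% and 59.6% in RS, so only the sum over both isoforms was used. Neither isoform share was tested.

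Ordered by mean RPKM in PS, the genes ran Stag3, Smc1b, Sgol2, Stag1, Rad21, Smc3, Rec8, Smc1a, Stag2 and Rad21l. The ranges of neighbours in this order overlapped between Rad21 and Smc3, between Smc3 and Rec8 and between Stag2 and Rad21l, and not between the others. In RS the order was Stag3, Smc1b, Rec8, Smc3, Rad21, Stag1, Stag2, Sgol2, Rad21l and Smc1a, with overlap between Smc3 and Rad21 and between Stag2 and Sgol2. Rec8 thus moved from rank 7 to rank 3, and Sgol2 from rank 3 to rank 8. The mean of Stag3 was 2.32 times that of Smc1b in PS and 1.47 times in RS.

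The share of each alternative subunit at its position of the ring was taken from RPKM. It describes the RNA of the whole sample, in which other cell types also differed between the groups. At the SMC1 position Smc1b held 97.1% and 96.1% in PS and 97.8% and 97.9% in RS, so the meiotic form dominated in all 4 samples. At the STAG position Stag3 held 88.7% and 92.6% in PS and 87.8% and 89.1% in RS. Of the same sum of the 3 STAG genes, Stag2 held 0.878% and 0.706% in PS and 5.51% and 4.57% in RS. At the kleisin position Rec8 held 36.4% and 49.2% in PS and 60.4% and 65.8% in RS, while Rad21 held 57.3% and 43.3% and then 35.7% and 30.1%. Rad21l, with 6.22% and 7.43% in PS and 3.93% and 4.1% in RS, had the smaller share in RS although its level was higher there, because the sum of the 3 kleisins was 19.6 and 20.5 RPKM in PS and 86.5 and 83.5 in RS. The ratio of Stag3 to Rec8, its partner in meiotic rings, was 23.1 and 17.8 in PS and 2.43 in both RS samples. The ratio of Smc1b to Smc3 was 8.98 and 7.74 in PS and 2.88 and 3.21 in RS. These shares are levels of RNA, not of protein, and were not tested.

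**Figure D2:**
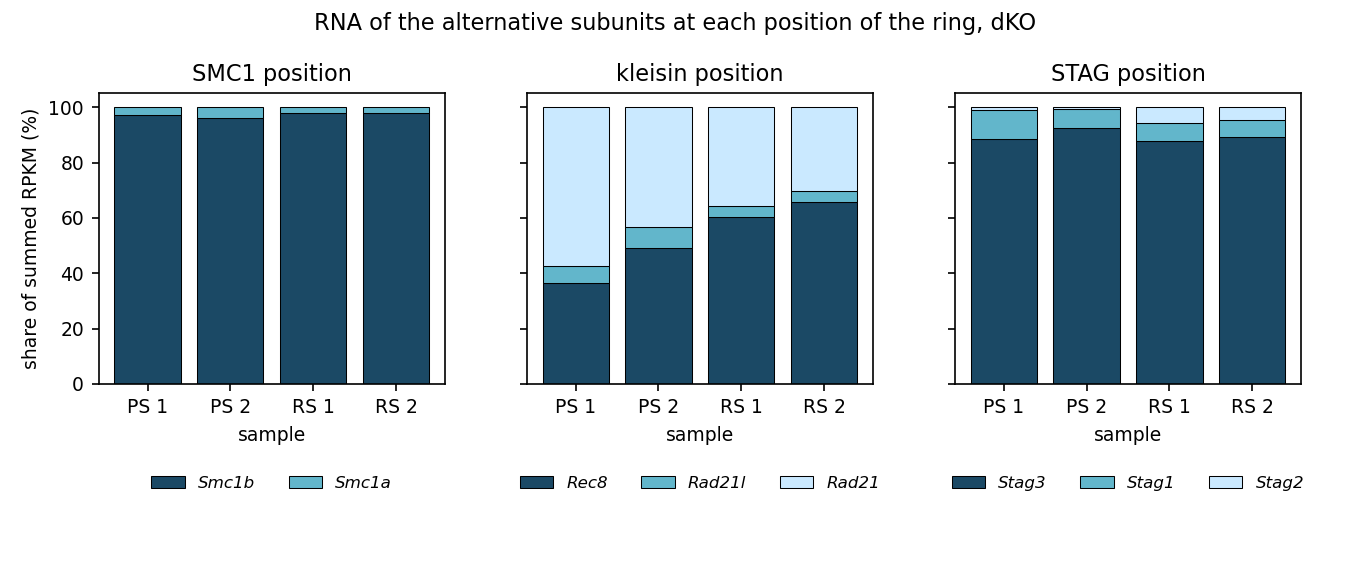
Share of summed RPKM (%) that each alternative subunit took at the SMC1, kleisin and STAG positions in the 2 PS and 2 RS samples of the dKO. Smc1b and Stag3 held at least 87.8% of their positions in every sample, and the Rec8 share was higher in both RS samples than in either PS sample.

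Set side by side, the meiotic and the general subunits both had members that were higher in RS. Of the 4 meiotic subunits 2 were higher and 0 were lower by edgeR and by DESeq2, with a median log2 difference of 0.83, beside 30.4% higher and 27.6% lower among all genes tested, and at an unadjusted p under 0.05 only Stag3 was lower. Of the 5 general subunits 3 were higher, 1 was lower, and the median was 1.52. The median of all genes tested was 0.01. The groups are small and chosen with results known, so no test was made between them.

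Cohesin regulators were counted from a list of 14 genes. Most of their proteins load, acetylate, release or cleave cohesin, and the list also holds Sgol1, a protector, and Ctcf and Ctcfl, which bind DNA at sites where cohesin collects. Of the 14 genes 13 were tested, and 1 was higher and 3 were lower in RS, with a median log2 difference of -0.14, beside 30.4% higher and 27.6% lower among all genes tested. Hdac8, the SMC3 deacetylase on the X chromosome, had at most 3 reads in any sample and was not tested. Pttg1, securin, which holds separase inactive, fell by 1.35 on the log2 scale (SE 0.23; edgeR adjusted p = 0.000969), with 61.4 and 86.3 RPKM in PS and 27.2 and 32 in RS. Pds5b, which binds the ring and regulates its release, fell by 0.98 (SE 0.16; edgeR adjusted p = 0.000907), with 13.7 and 10.2 RPKM in PS and 6.11 and 5.62 in RS. Esco1 and Esco2 acetylate SMC3 to lock the ring, Esco2 in S phase, and they were called in opposite directions. Esco1 had 12.6 and 9.89 RPKM in PS and 5.81 and 6.51 in RS (log2 -0.82 ± 0.17; edgeR adjusted p = 0.00262). Esco2 had 5.45 and 2.76 in PS and 6.41 and 7.56 in RS (log2 0.81 ± 0.29; edgeR adjusted p = 0.035). The Esco2 call was lost without the second PS sample (log2 0.45, edgeR adjusted p = 0.091), without the second RS sample (0.79, adjusted p = 0.0972) and with limma on log2 RPKM (adjusted p between 0.0551 and 0.0574).

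Condensin and the SMC5/6 complex compact and repair chromosomes with related SMC proteins. Of 14 of their genes 9 were lower in RS and 0 were higher by edgeR, with a median log2 difference of -0.94, and DESeq2 gave the same counts. Among all genes tested 27.6% were lower and 30.4% were higher. The largest falls were in Ndnl2 and Nsmce4a, subunits of SMC5/6, and in Ncapd3, a subunit of condensin II. Ndnl2 fell by 2.63 on the log2 scale (SE 0.19; edgeR adjusted p = 1.01e-05), Nsmce4a fell by 1.92 (SE 0.17; edgeR adjusted p = 2.57e-05) and Ncapd3 fell by 1.30 (SE 0.17; edgeR adjusted p = 0.00023). Ndnl2 had 22.1 and 23.5 RPKM in PS and 3.65 and 3.48 in RS. At an unadjusted p under 0.05, 1 of the 14 was higher in RS, Ncapg2 (log2 0.52 ± 0.17; edgeR adjusted p = 0.0269), at less than 1.5-fold.

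The 5 genes whose profile lay closest to the mean profile of the 4 meiotic subunits were Ap2a1, Tctn2, Ccdc138, A330021E22Rik and Acot8. Likeness was the Euclidean distance over 4 samples of log2(RPKM + 1), centred per gene, among 11173 genes with a mean of at least 1 RPKM in PS. Their distances were between 0.0335 and 0.0611. Ap2a1 had 59.0 and 64.2 RPKM in PS and 106 and 109 in RS. The mean profile joins Rec8, which was 6.39-fold higher in RS, with Stag3, which was 1.29-fold lower, and so describes none of the 4 genes well.

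H3K27ac around the start sites was called for 6 of these genes. Rec8 and Smc3 had stronger H3K27ac in RS of wild-type mice, and Stag3, Smc1a, Sgol2 and Rad21 had weaker H3K27ac. Each gene was given the fold enrichment over background of its strongest interval within 2 kb of a start site, and limma was run on log2 of 1 + fold enrichment over 11394 genes with an interval in all 4 samples. All 10 genes were among them, 2 called higher and 4 lower, while 8.13% of all genes tested were higher and 32.7% were lower. The median gene was lower in RS by a log2 difference of -0.39, and with each sample centred on its median 1760 genes were higher and 1439 lower in place of 926 and 3727.

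**Figure D3:**
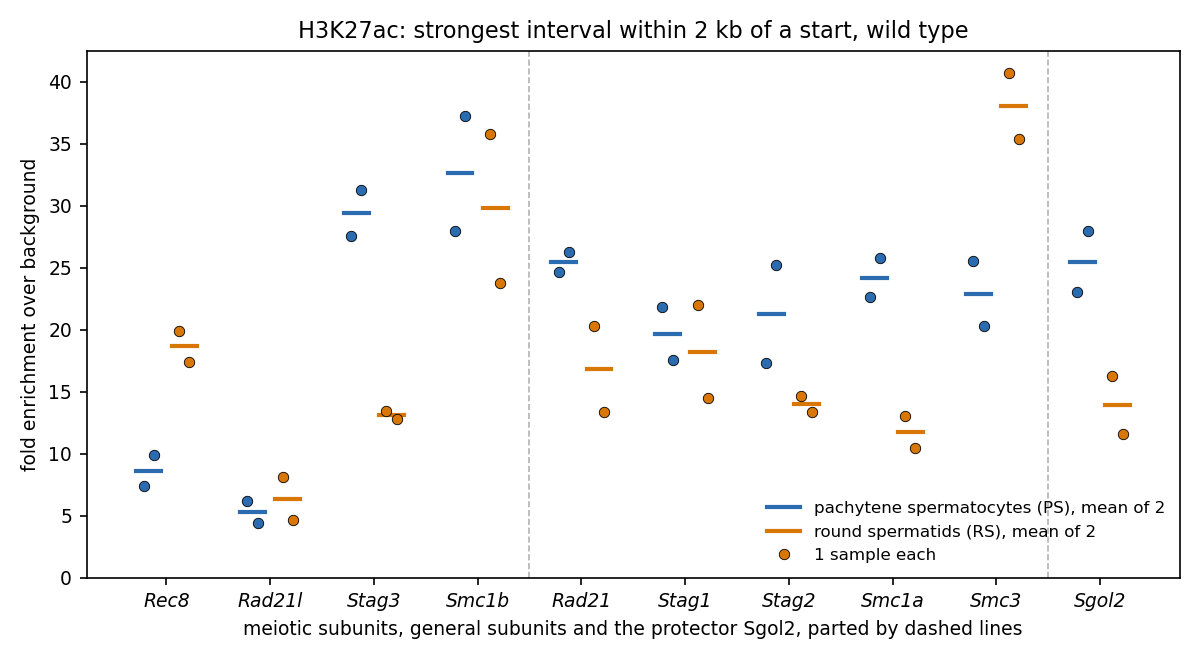
Fold enrichment of H3K27ac over the background of each sample at the strongest interval within 2 kb of a start site of each gene, in the 2 PS and 2 RS samples of wild-type mice, with bars for the mean of 2. Rec8 and Smc3 lay higher in both RS samples, and Stag3, Smc1a, Sgol2, Rad21 and Stag2 lay lower in both.

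At Rec8 the strongest interval had fold enrichments of 7.41 and 9.87 in PS and 19.9 and 17.4 in RS. This promoter had the second weakest H3K27ac of the 10 in PS, and the log2 difference was 1.04 ± 0.28 (SE, n = 2 and 2; limma adjusted p = 0.00121). At Smc3 the values were 25.5 and 20.3 in PS and 40.7 and 35.4 in RS, a log2 difference of 0.71 ± 0.22 (limma adjusted p = 0.00412). The Smc3 promoter lay at percentile 99.4 and 99.3 of all genes tested in RS, from 77.2 and 54.4 in PS. After median centring both differences were larger, 1.43 for Rec8 (limma adjusted p = 5.26e-09) and 1.11 for Smc3 (1.51e-08). The Smc3 call was lost with the replicate block (limma adjusted p = 0.0693), with an interval required in only 2 of 4 samples (0.0591) and with pileup over background pileup (0.0791).

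At Stag3 the fold enrichments were 27.6 and 31.2 in PS and 13.4 and 12.8 in RS, a log2 difference of -1.11 ± 0.26 (limma adjusted p = 0.000137). At Smc1a they were 22.6 and 25.8 in PS and 13.0 and 10.4 in RS, a log2 difference of -0.99 ± 0.27 (limma adjusted p = 0.00125). Both promoters were weaker in RS also after centring, at -0.71 (limma adjusted p = 8.47e-05) and -0.59 (0.00109). Smc1a is X-linked, and no share over X-linked genes was taken for H3K27ac. For Sgol2, with 23.0 and 28.0 in PS and 16.3 and 11.6 in RS, the log2 difference of -0.84 ± 0.26 (limma adjusted p = 0.00523) became -0.44 (0.0111) after centring, under 1.5-fold. For Rad21, with 24.7 and 26.3 in PS and 20.3 and 13.4 in RS, the difference of -0.60 ± 0.25 (limma adjusted p = 0.0433) became -0.20 (0.246). The calls of Sgol2 and Rad21 were also lost with the replicate block (limma adjusted p = 0.0573 and 0.179) and with an interval required in only 2 of 4 samples (0.0672 and 0.14), that of Rad21 with pileup over background pileup (0.176), and that of Smc1a with quantile normalization (log2 -0.58, adjusted p = 0.00566, under 1.5-fold).

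The other 4 genes did not pass. Smc1b, with 28.0 and 37.3 in PS and 35.8 and 23.8 in RS, differed by a log2 of -0.14 ± 0.21 (limma adjusted p = 0.611), and Stag1, with 21.8 and 17.5 against 22.0 and 14.5, by -0.12 ± 0.26 (0.725), both turning positive after centring, at 0.25 and 0.27. Stag2, with 17.3 and 25.2 in PS and 14.6 and 13.4 in RS, differed by -0.55 ± 0.27 (limma adjusted p = 0.0847). Rad21l, with 6.17 and 4.38 against 8.14 and 4.64, was the weakest in every sample, with a log2 difference of 0.21 ± 0.24 (limma adjusted p = 0.494) that was called higher after centring (0.60, adjusted p = 0.0417). With either PS sample left out, so that the remaining one is assumed to vary like the RS samples, 0 of the 10 genes were called by limma, 4 and 2 had an unadjusted p under 0.05, and the adjusted p of Rec8 was then 0.26 and 0.13 and that of Stag3 0.0965 and 0.198. Without the second RS sample Rad21 was not called (log2 -0.31, limma adjusted p = 0.198), and without the first Stag2 was called lower (-0.61, adjusted p = 0.0435).

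**Figure D4:**
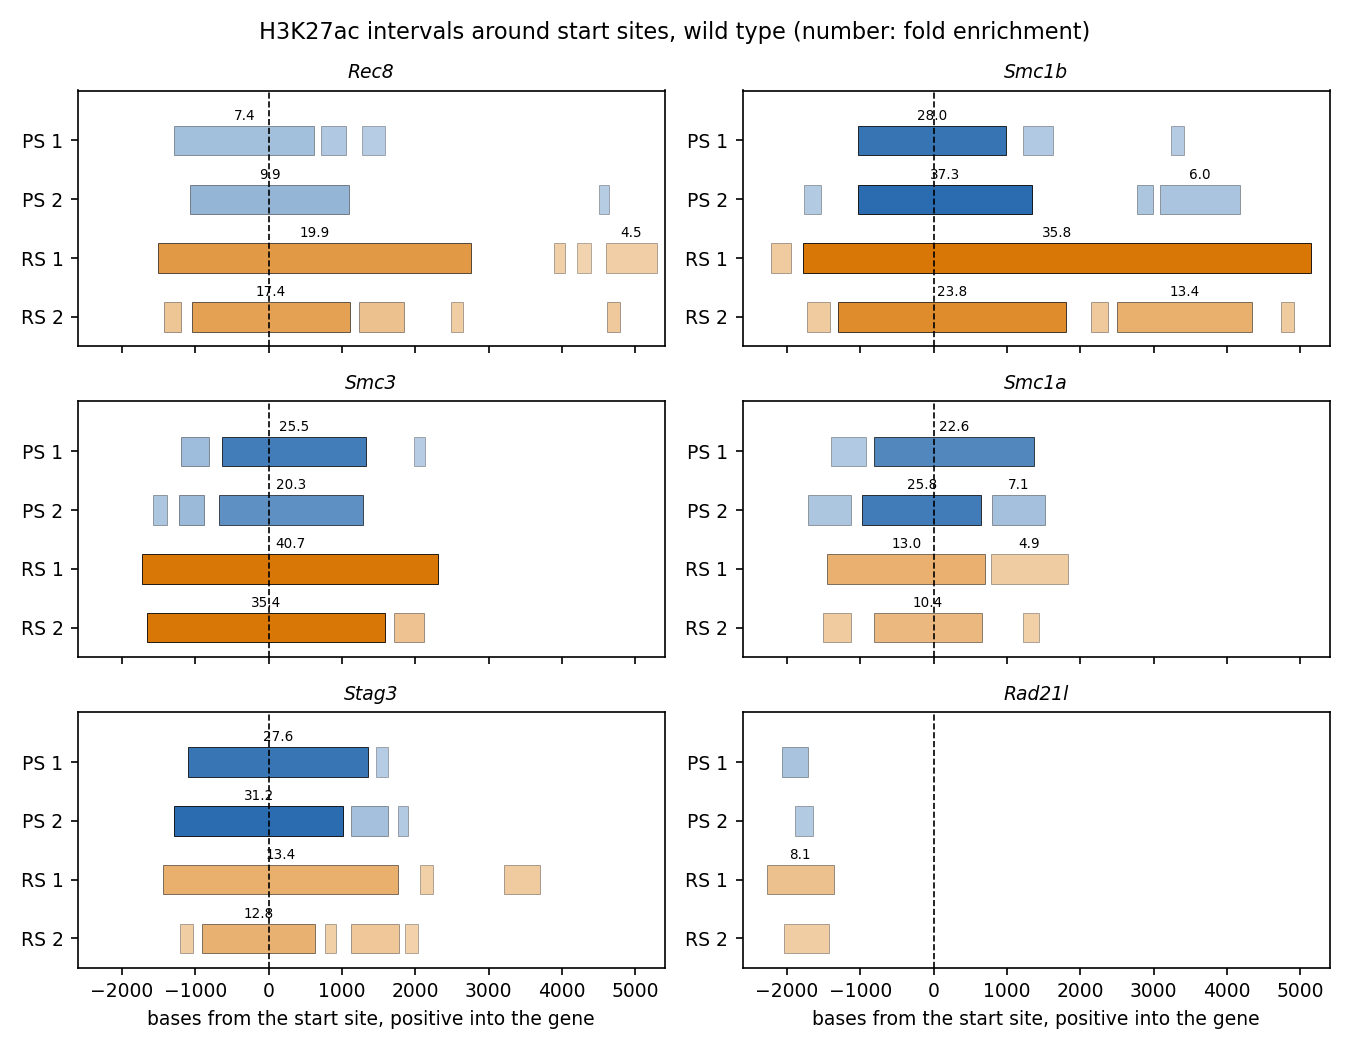
Intervals of H3K27ac around the start sites of 6 cohesin genes in the 4 wild-type samples, by distance in bases from the start site, with the fold enrichment printed over wide intervals and a deeper shade for a stronger interval. Intervals at Rec8, Smc3 and Smc1b reached further in RS, and those of Rad21l lay upstream of the deposited start in every sample.

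The acetylated regions also differed in breadth. Of 4001 bases centred on the Rec8 start, intervals covered 64.0% and 54.5% in PS and 87.8% and 74.9% in RS. At Smc3 they covered 58.8% and 62.3% in PS and 93.1% and 88.1% in RS, and at Smc1b 60.7% and 65.5% in PS and 96.2% and 85.6% in RS. At Rad21l they covered 7.3% and 6.05% in PS and 15.9% and 14.4% in RS, all upstream of the deposited start. The window edge cut some of these intervals, whose full widths were 358 and 242 bases in PS and 908 and 613 in RS. The windows of these 4 genes were covered more in both RS samples than in either PS sample. Stag2 went the other way, with 88.7% and 88.8% in PS and 73.3% and 43.6% in RS around its upstream start. It did so around its downstream start too. For Stag3, Rad21, Stag1, Smc1a and Sgol2 the stages overlapped. The share of all genes with such a separation is not given here. Over all genes tested the median coverage was 44.6% and 47.8% in PS and 57.9% and 40.2% in RS. The strongest Smc1b interval was 2016 and 2379 bases wide in PS and 6933 and 3110 in RS, and in the second RS sample a separate interval of fold enrichment 13.4 lay between 2508 and 4346 bases into the gene. In PS the intervals between the promoter and 5 kb into the gene reached at most 4.53 and 6.03. At Rec8, intervals within the gene beyond 2 kb of the start numbered 0 and 1 in PS and 5 and 4 in RS. The first RS sample had 74919 intervals in all and the others between 41095 and 49434. The second RS sample alone also exceeded both PS samples in each of the 4 windows of Rec8, Smc3, Smc1b and Rad21l. These breadths were not tested.

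Stag2 had acetylation on both sides of its upstream start site, with a gap over the start itself in all 4 samples. The interval just upstream had fold enrichments of 17.3 and 25.2 in PS, and the strongest upstream intervals in RS had 8.14 and 6.39. The interval just downstream had 14.0 and 14.3 in PS and 14.6 and 13.4 in RS. Upstream of the start both PS samples thus lay above both RS samples, while Stag2 RNA was higher in RS. In the interval just downstream the stages overlapped. Further on, over the start of the other isoform (NM_021465), fold enrichments were 14.0 and 12.1 in PS and 6.51 in the first RS sample. In the second RS sample no interval covered that start, and the nearest one began 3 bases into the gene, at 6.39. The contrast between sides therefore depends on the interval taken. These values were read from the intervals and were not tested.

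Rad21l and Sgol2 show where a start site lay outside the acetylation. The only interval near Rad21l lay at least 1363 bases upstream of its deposited start (position 151668533) in every sample. RefSeq models of the gene (XM_006500042, XM_006500043 and XM_006500044) start 2089 bases upstream of it, and the intervals of all 4 samples reached over that start or lay within 200 bases of it. The stretches before both starts are shown because they differ in base composition.
Rad21l, before the deposited start, chr2:151668534-151668783, minus strand: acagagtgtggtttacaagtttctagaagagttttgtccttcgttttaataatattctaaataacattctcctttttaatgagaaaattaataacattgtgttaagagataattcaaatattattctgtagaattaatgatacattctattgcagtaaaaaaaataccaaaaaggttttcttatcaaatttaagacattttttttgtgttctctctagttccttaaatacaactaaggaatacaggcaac
Rad21l, before the upstream start, chr2:151670623-151670872, minus strand: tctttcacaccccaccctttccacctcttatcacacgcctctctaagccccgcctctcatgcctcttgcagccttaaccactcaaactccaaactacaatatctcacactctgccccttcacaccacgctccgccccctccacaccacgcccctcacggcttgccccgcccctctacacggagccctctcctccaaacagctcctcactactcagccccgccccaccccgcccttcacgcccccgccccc
The first stretch was 25.6% G and C, and 0.42% of all promoters in the table had no more than that. The second was 62.8% G and C, against a median of 52.4% over all promoters, and neither held any of the motifs searched. Sgol2 had a strong interval over the downstream start of NM_199007 (23.0 and 28.0 in PS, 16.3 and 11.6 in RS) and none within 2 kb of the upstream start of NM_001177867 in any sample, although 39.4% and 43.4% of the PS reads of the gene were given to that isoform in the dKO.

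At 3 of the cohesin genes the promoter interval carried a second gene name in the files. Smc1a starts 133 bases from Ribc1, Smc1b 142 bases from Ribc2 and Stag3 572 bases from Gpc2, each pair facing away from the other. H3K27ac over such a start cannot be assigned to either gene. The RNA of the neighbours was 18.9 and 19.2 RPKM in PS and 59.3 and 47.1 in RS for Ribc1, which was higher in RS (log2 1.52 ± 0.17; edgeR adjusted p = 8.08e-05) while Smc1a was not called and the shared H3K27ac was weaker. Ribc2, with 28.7 and 32.2 in PS and 40.1 and 36.1 in RS, was not called (log2 0.36 ± 0.15; edgeR adjusted p = 0.0598), as Smc1b was not. Gpc2, with 4.19 and 7.67 in PS and 2.08 and 3.41 in RS, was lower in RS (log2 -1.09 ± 0.35; edgeR adjusted p = 0.0237), and its call was lost without the second PS sample (-0.53, adjusted p = 0.13) and without the first RS sample (-0.67, adjusted p = 0.183).

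Set against each other, both assays gave a call in the same direction for Rec8 and Smc3, which were higher in RS. They did so as well for Sgol2, which was lower in both before centring. Rad21 was called higher in RNA and lower in H3K27ac at its start site, and the latter call was lost on centring. Away from the start its H3K27ac went the other way. Intervals assigned to Rad21 beyond 2 kb of the start numbered 2 and 3 in PS and 10 and 6 in RS. The strongest of them had fold enrichments of 6.58 and 4.38 in PS and 12.6 and 9.87 in RS, which was not tested. Stag2 and Rad21l were higher in RNA without a call in H3K27ac. Stag3 and Smc1a had weaker H3K27ac in RS without a call in RNA, and Stag1 had less RNA without a call in H3K27ac. Calls aside and before centring, the differences of both assays were lower in RS for Stag3, Smc1a and Stag1, and higher for Rad21l. Those of Stag2, Rad21 and Smc1b pointed opposite ways. The RNA came from the dKO and the H3K27ac from wild type, so genotype and assay cannot be told apart here.

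**Figure D5:**
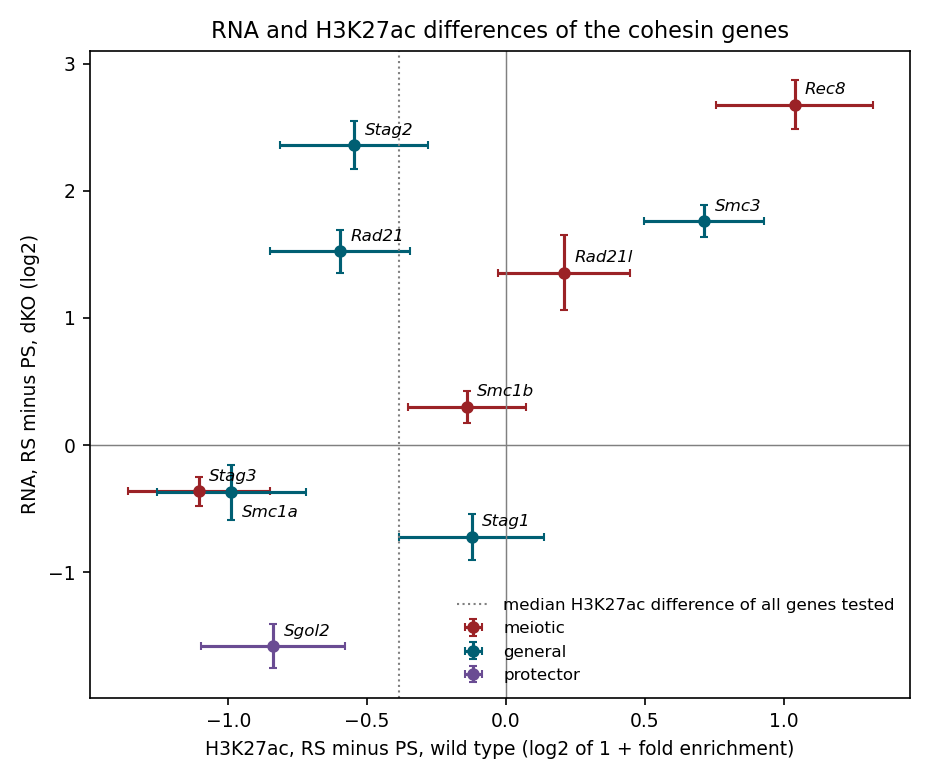
Difference of RS minus PS in RNA of the dKO (log2, vertical axis) against that in H3K27ac of wild type (log2 of 1 + fold enrichment, horizontal axis) for the 10 genes, with bars of 1 SE, lines at 0 and a dotted line at the median H3K27ac difference of all genes tested. By the lines at 0, Rec8, Smc3 and Rad21l lie at the upper right, and Stag2, Rad21 and Smc1b at the upper left. Sgol2, Stag3, Smc1a and Stag1 lie at the lower left.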

How the data were processed

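RNA of PS and RS from the dKO and H3K27ac ChIPmentation of PS and RS from wild type were analysed, 2 samples each. Per the study's methods and the submitters' processing notes, the authors aligned RNA reads to mm10 with STAR 2.4.2a, keeping unique alignments with at most 2 mismatches, and deposited read counts per RefSeq isoform, split by expectation maximization, with RPKM beside them. The RNA libraries were made from amplified cDNA with no statement on strand, and no other gene of the tables overlaps the 10 genes. H3K27ac reads were aligned with Bowtie and peaks were called per sample with MACS2, whose versions stand as 1.1.1 and 2.1.0.20140616 in the notes and otherwise in the methods. Each deposited interval carries a pileup signal, a fold enrichment ratio over a constant background, and −log10 p and q values. The fold enrichment equalled (pileup + 1)/(background + 1), with a background pileup of 1.43 and 0.824 in PS and 1.46 and 0.723 in RS, so it is damped more in the shallower samples.

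Rows were summed per gene. Counts were tested with edgeR 4.0.16 (R 4.3.3; TMM, at least 10 reads in at least 2 samples) and fold enrichment with limma 3.58.1 with a mean-variance trend, using summits joined to intervals and the strongest interval within 2 kb of a start site. Calls needed a Benjamini-Hochberg adjusted p under 0.05 over all genes tested and at least 1.5-fold. With 2 samples per group the exact two-sided permutation test of a single value cannot go below p = 0.333, so calls rest on models that share the spread between genes, and they measure the spread between samples only. Both procedures were tested on simulated data. Alternatives were DESeq2 1.42.0, other scalings, filters, windows and units, a replicate block and leaving out each sample. The members and gene lists were chosen with earlier results of these data known. Named beyond the 10 genes are the called regulators and SMC genes with the 3 largest falls and 3 largest rises per list and any not tested, genes starting within 1 kb of a cohesin gene, and the 5 genes of most similar profile. Ncapg2 was named after its value was seen. A spermatocyte marker of the lists is not reported here.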

Additional observations from a re-analysis of the deposited data

How the results depend on the processing

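For RNA, the 10 genes kept their direction under all 13 alternatives and their side of the threshold under all but the 3 for Stag1 given above. Members called lower numbered 1 to 2 with each sample left out, general subunits called lower 0 to 1, cohesin regulators called higher 0 to 2 and SMC genes of other complexes called higher 0 to 1. Regulators called higher numbered 0 with limma on log2(RPKM + 1) and on log2(RPKM + 0.1), and 1 SMC gene of another complex was called higher among genes with at least 50 reads. For H3K27ac, 1760 genes were higher and 1439 lower with median centring, 1587 and 1565 with quantile normalization, and 2163 were lower with an interval required in 2 of 4 samples. With pileup over background pileup, chosen after seeing the data as were upper quartile scaling and summits within 2 kb, 2277 were lower. With each sample left out, 90 to 1078 genes were higher and 416 to 5334 lower, and of the 10 genes 0 to 2 were higher and 0 to 5 lower. Of the 10, 1 was higher with an interval in 2 of 4 samples, with the replicate block and with pileup over background, where the call of Smc3 was lost. Lower were 2 with median centring, 1 (Stag3) with quantile normalization, and 2 (Stag3 and Smc1a) with an interval in 2 of 4 samples and with the block. Without a call in either direction, Smc1b turned positive with median centring (0.25) and quantile normalization (0.22) and ranged from -0.43 to 0.14 over samples left out, Stag1 likewise (0.27, 0.29, and -0.41 to 0.16), and Rad21l ranged from -0.14 to 0.56. The causes were not tested. The replicate numbers could not be shown to pair the samples. Deviations from the stage means correlated over genes between same-numbered samples at 0.225 for RNA and 0.00689 for H3K27ac, and a replicate block gave 4589 genes higher and 4134 lower for RNA and 714 and 2187 for H3K27ac. Rad21l rested on 23 to 79 reads a sample.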
